A study of Danio rerio with 16 samples.

Results

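The genes described here are those of zebrafish interferon signalling, Jak-Stat signalling and innate sensing of microbes and damage, measured by RNA sequencing of adult hearts. They were chosen by name: the Irf, Stat, Mx, Gbp, Isg, Ifi, Socs, Cish, Jak, Tlr, Nfkb and Rel genes, with tyk2, dhx58, rsad2, myd88, sting and cgas, and without the irf2bp genes. The rule matched 127 names of a reference table, and 76 of them had values among the 14500 genes of the table, while the other 51 were not analysed here. The hearts came from fish aged 6 to 9 months, and each library pooled 3 hearts. The 4 groups held 4 libraries each. KO cryoinjury hearts came from mutants of tert, which encodes the protein subunit of telomerase (Tert, AB/hu3430), taken 3 days after the ventricle was injured by freezing. KO control hearts came from the same mutants without injury, WT cryoinjury hearts from wild-type fish 3 days after the same injury, and WT control hearts from uninjured wild-type fish. All p-values measure the spread between pools of 3 hearts.

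As background, interferons and many cytokines bind receptors that carry Jak kinases, and the Jaks activate Stat proteins, which enter the nucleus and switch on target genes. Type I interferon acts through Stat2 and Irf9, among others, on effectors such as Mx, Gbp and Isg15, while Socs and Cish proteins are induced as feedback inhibitors. Toll-like receptors, Sting and RNA sensors detect nucleic acids or bacterial products and feed the Irf factors and NF-kB, whose subunits are held back by the Nfkbi inhibitors. In an injured heart these genes are expressed by resident cells and by arriving macrophages and neutrophils.

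Values are the authors' normalized units, which are comparable between libraries for a gene but not between genes, because gene length was not taken into account. Libraries held 5611576 to 14831664 recovered reads. The table lists genes whose 4th highest library reached at least 1.76 units, and 11 of the 76 genes had fewer than 4 of the 8 control libraries at that level (ifi44a1, ifi44a6, ifi44c2, ifit11, ifit12, irf10, mxc, mxf, sting1, tlr8b and tlr21), so they entered the table through injured hearts. The irf4 and socs2 genes had fewer than 4 of the 8 cryoinjury libraries at that level and entered it through control hearts. The tert transcript read 6.25, 6.79, 6.84 and 6.46 in KO cryoinjury and 6.45, 5.65, 6.56 and 5.69 in KO control. WT hearts held 1.99, 2.83, 2.85 and 5.16 in cryoinjury and 1.24, 1.19, 1.42 and 1.97 in control, and no KO library overlapped a WT library. Since hu3430 is known as a stop mutation, the transcript level does not test whether the protein was lost. The cardiomyocyte genes myl7, cmlc1 and actc1a were detected in every library, with summed levels of 28494 to 40392 units in KO cryoinjury, 46375 to 59575 in KO control, 30635 to 32020.0 in WT cryoinjury and 55195 to 64439.9 in WT control. KO cryoinjury libraries 1 and 2 stood above the other libraries of their group for the marker genes krt5, mmp9 and mmp13a. In that group, libraries 1 to 4 had 337, 887, 12 and 75.4 units of the epithelial keratin gene krt5, and the summed neutrophil markers (lyz, npsn, ncf1, mmp13a and mmp9) 153, 710.5, 73.3 and 65.7. Most of the sum in libraries 1 and 2 came from mmp9 (106, 442, 21.7 and 39.6) and mmp13a (14.2, 212, 10.3 and 4.45). The ncf1 gene read 23.8, 40.5, 19.5 and 13.3. By contrast, lyz (2.13, 4.19, 4.17 and 3.56) and npsn (6.56, 11.7, 17.5 and 4.79) did not set libraries 1 and 2 apart. With KO cryoinjury libraries 1 and 2 left out, 32 of the 45 injury calls in KO hearts remained, and values without them are given for the described genes whose call ended.

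Cryoinjury was accompanied by higher levels of most of the genes in both genotypes. In KO hearts 41 of 76 genes (53.9%) rose and 4 (5.26%) fell, and in WT hearts 44 (57.9%) rose and 5 (6.58%) fell (limma, adjusted p under 0.05 over all 14500 genes). Over all genes of the table, 25.2% rose and 22.4% fell in KO hearts (47.6% in either direction), and 24.2% rose and 21.7% fell in WT hearts (45.9%). The median log2 difference of the 76 genes, cryoinjury minus control on the log2(value + 1) scale, was 0.64 in KO hearts and 0.63 in WT hearts, against -0.02 and -0.01 for all genes. The KO median was 0.42 with cryoinjury libraries 1 and 2 left out. Without the 11 genes that were low in controls, 32 of the other 65 rose and 4 fell in KO hearts, and 33 rose and 5 fell in WT hearts. The falls include irf4 in KO hearts and socs2 in WT hearts, which entered the table through control hearts. The median difference of these 65 was 0.41 in each genotype. Of the 76 genes, 39 rose in both genotypes, some of them genes that entered the table through injured hearts, and stat4 alone fell in both. The share of all genes that passed in both genotypes was not counted. The libraries of the injured group lay entirely above those of the control group for 35 genes in KO hearts and 39 in WT hearts (22.1% and 22.9% of all genes), and entirely below for 3 and 4 (18.5% and 20.4% of all genes). Among the 65 genes that were not low in controls, 27 lay entirely above in KO hearts and 29 in WT hearts. Entirely below were 3 and 4 of the 65. In either direction, 40.5% of all genes did not overlap in KO hearts and 43.2% in WT hearts.

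**Figure D1:**
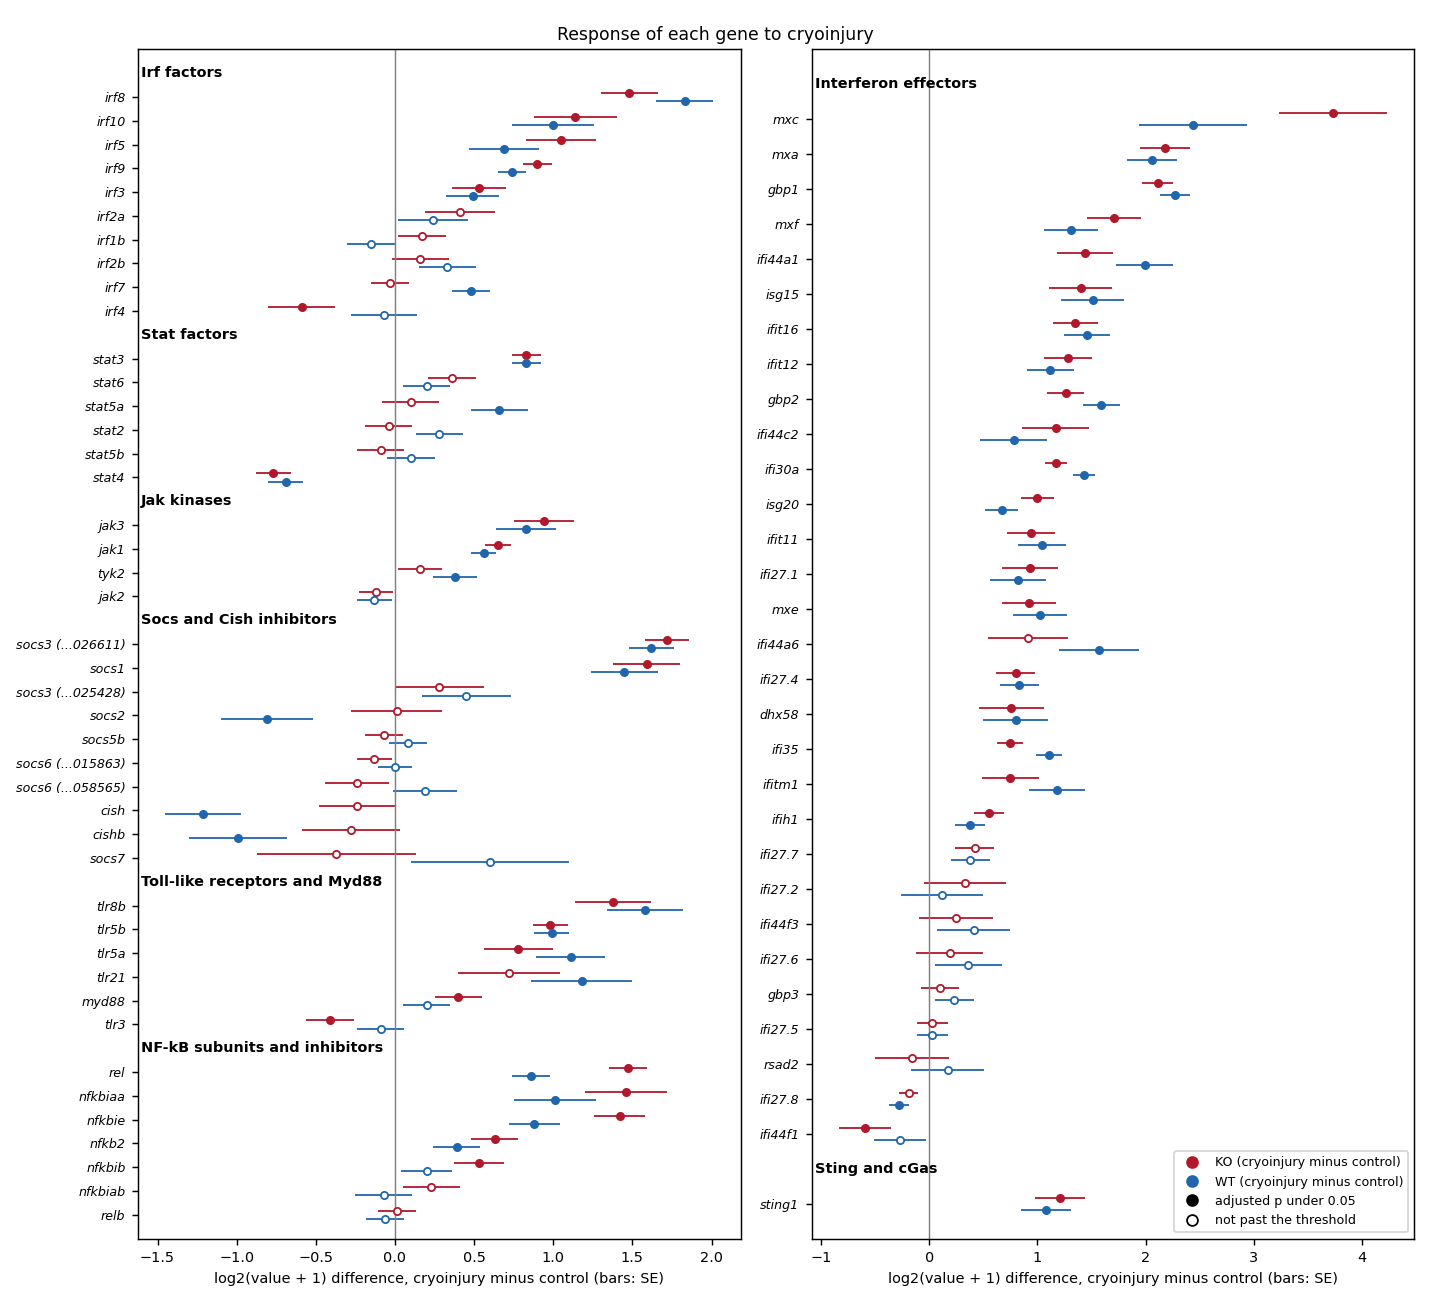
Difference between cryoinjury and control hearts for the members described here, on the log2(value + 1) scale (x axis), in KO (red) and WT (blue) hearts, grouped by role and ordered within a role by the KO difference. Bars are standard errors, filled points passed an adjusted p of 0.05, and genes that share a symbol carry the end of their Ensembl identifier. The points of both genotypes lie mostly to the right of 0, from a highest value of 3.73 (mxc in KO) to a lowest of -1.21 (cish in WT).

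Of the immune cell markers, those of macrophages and of all leukocytes mostly rose with injury in the same libraries, and those of neutrophils did so less uniformly. Macrophage genes were higher after injury for 11 of 12 identifiers in each genotype (9 of 12 marker names had values, with several identifiers named mfap4). Their summed levels were 1134 to 1438 units in KO cryoinjury, 438 to 546 in KO control, 1309 to 1674 in WT cryoinjury and 421 to 631 in WT control. The cd74a and cd74b genes weighed most in these sums, with 436 and 242 units in KO cryoinjury library 1 and 222 and 114 in KO control library 1. All 4 leukocyte genes with values also rose in both genotypes, with sums of 284 to 402 in KO cryoinjury, 78.7 to 108 in KO control, 314 to 406 in WT cryoinjury and 69.0 to 127 in WT control. Of the 5 neutrophil genes with values (8 names listed), 4 rose in KO hearts and 2 in WT hearts. Among them, lyz, npsn, mmp13a and mmp9 had fewer than 4 of the 8 control libraries at the level needed to enter the table. These genes therefore entered it through injured hearts, which favours a rise with injury in the neutrophil counts. The ncf1 gene was above that level in every control library and rose by 2.24 in KO and 1.73 in WT. In WT hearts lyz differed by -0.68 (limma adjusted p = 0.525) and npsn by 0.93 (limma adjusted p = 0.358). Both values hold 1 high control library: WT control library 4 read 65.6 for lyz and 48.6 for npsn. The other WT control libraries read 0.264 to 1.59 for lyz and 0.354 to 1.84 for npsn. The shares of all genes that rose were 25.2% in KO hearts and 24.2% in WT hearts. The part of these markers in the differences of the 76 genes was not tested. In tissue of mixed cells, a change in the number of cells of a type and a change in RNA per cell cannot be told apart.

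Of the 5 Toll-like receptor genes and myd88, which encodes their shared adaptor, 4 rose in KO hearts and 1 fell, and 4 rose in WT hearts. Over all genes, 25.2% rose and 22.4% fell in KO hearts, and 24.2% rose and 21.7% fell in WT hearts. The tlr8b and tlr21 genes entered the table through injured hearts. Without them, 3 of the other 4 rose and 1 fell in KO hearts, and 2 rose in WT hearts. The tlr5b gene, for a receptor of bacterial flagellin, read 41.6, 47.8, 41.1 and 41.5 in KO cryoinjury and 20, 19.8, 26.7 and 19.6 in KO control. In WT hearts it read 46.4, 51.3, 46.3 and 42.7 in cryoinjury and 23.5, 25.7, 19.6 and 23.3 in control. Injured libraries lay above all control libraries in both genotypes, by 0.98 (SE 0.11, limma adjusted p = 1.36e-06) in KO and 0.99 (SE 0.11, limma adjusted p = 9.84e-07) in WT. Its paralogue tlr5a read 4.73, 7.08, 5.34 and 3.23 in KO cryoinjury and 2.7, 2.15, 2.9 and 2.16 in KO control. WT libraries read 8.09, 5.85, 6.48 and 4.38 in cryoinjury and 1.95, 2.5, 1.42 and 3.65 in control. It rose by 0.78 (SE 0.22, limma adjusted p = 0.00824) in KO and by 1.11 (SE 0.22, limma adjusted p = 0.000546) in WT, but in KO hearts it did not pass once cryoinjury libraries 1 and 2 were left out (0.58, limma adjusted p = 0.0969). The tlr8b gene, of a family that senses single-stranded RNA, read 4.57, 4.19, 3.5 and 4.9 in KO cryoinjury and 1.2, 1.48, 0.915 and 0.588 in KO control. The values in WT hearts were 8.21, 4.15, 4.91 and 5.88 in cryoinjury and 1.41, 2.37, 0.386 and 1.12 in control. The injured and control libraries did not overlap, and the difference was 1.38 (SE 0.24, limma adjusted p = 0.000167) in KO and 1.58 (SE 0.24, limma adjusted p = 4.12e-05) in WT.

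For tlr21, which in fish recognises bacterial DNA, the difference was 0.72 (SE 0.32, limma adjusted p = 0.0733) in KO and 1.18 (SE 0.32, limma adjusted p = 0.00587) in WT, so it passed in WT hearts. The tlr3 gene encodes a receptor for double-stranded RNA, and it was lower after injury in KO hearts, at -0.41 (SE 0.15, limma adjusted p = 0.0285), with a difference of -0.09 (SE 0.15, limma adjusted p = 0.653) in WT. With library totals in place of the authors' scaling the KO value was -0.21 (limma adjusted p = 0.292), and the call also ended without KO cryoinjury library 4 (-0.34, limma adjusted p = 0.0878) or KO control library 2 (-0.34, limma adjusted p = 0.0905). The myd88 gene read 12.8, 18.2, 11.5 and 11.2 in KO cryoinjury and 9.91, 8.35, 12.8 and 8.63 in KO control. WT values were 11.5, 10.4, 12.8 and 11.3 in cryoinjury and 11.3, 10.5, 8.24 and 9.55 in control. Its difference was 0.40 (SE 0.15, limma adjusted p = 0.0427) in KO hearts and 0.20 (SE 0.15, limma adjusted p = 0.308) in WT hearts, and the groups overlapped in both. The KO call of myd88 ended on leaving out KO cryoinjury library 1 (0.41, limma adjusted p = 0.0617) or 2 (0.25, limma adjusted p = 0.171), or KO control library 1, 2 or 4 (limma adjusted p = 0.0697, 0.118 and 0.108). With both KO cryoinjury libraries 1 and 2 left out it was 0.20 (limma adjusted p = 0.366). The sensor adaptor gene sting1 read 2.29, 3.32, 2.34 and 1.56 in KO cryoinjury and 0.450, 0.269, 0.915 and 0.196 in KO control. WT hearts showed 2.7, 1.7, 1.77 and 2.88 in cryoinjury and 0.177, 0.395, 0.644 and 0.983 in control. It was above every control library in each injured library of the same genotype, by 1.21 (SE 0.23, limma adjusted p = 0.000305) in KO and 1.08 (SE 0.23, limma adjusted p = 0.00081) in WT, from counts as low as 1 read in control libraries. Like tlr8b and tlr21, sting1 entered the table through injured hearts.

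Of the 7 NF-kB genes, 5 rose in KO hearts, 4 of them also in WT hearts, and none fell. No member was named rela or nfkb1, and nfkbiaa, nfkbiab, nfkbib and nfkbie encode inhibitors. Over all genes, 25.2% rose and 22.4% fell in KO hearts, and 24.2% rose and 21.7% fell in WT hearts. The rel gene, for the c-Rel subunit, read 23.9, 25.6, 20 and 19.7 in KO cryoinjury and 8.56, 6.73, 7.62 and 6.67 in KO control. Wild-type libraries had 20.4, 22.7, 16.2 and 22.7 in cryoinjury and 11.8, 11.1, 10.4 and 9.69 in control. It rose by 1.47 (SE 0.12, limma adjusted p = 6.93e-08) in KO and 0.86 (SE 0.12, limma adjusted p = 2.21e-05) in WT, with no overlap between injured and control libraries. The inhibitor gene nfkbie read 39.3, 45.4, 29.2 and 25.1 in KO cryoinjury and 11, 12.7, 12 and 12.5 in KO control. Libraries of WT hearts read 20.6, 24.5, 18.1 and 25.3 in cryoinjury and 9.2, 14.1, 11.1 and 12.1 in control. It rose by 1.42 (SE 0.16, limma adjusted p = 2.38e-06) in KO and 0.88 (SE 0.16, limma adjusted p = 0.000299) in WT. The inhibitor gene nfkbiaa, a classical NF-kB target, read 39.5, 87.3, 26.4 and 30.8 in KO cryoinjury and 13.8, 16.4, 12.7 and 14.5 in KO control. WT hearts had 22, 24.5, 24.1 and 24.2 in cryoinjury and 7.6, 12.4, 11.3 and 15 in control. No injured library overlapped a control library of its genotype, and KO cryoinjury library 2 was the highest. The rise was 1.46 (SE 0.26, limma adjusted p = 0.000209) in KO and 1.01 (SE 0.26, limma adjusted p = 0.00441) in WT. With libraries 1 and 2 of KO cryoinjury left out, the KO rise was 0.95 (limma adjusted p = 0.000973). The nfkb2 gene, for the p100 precursor, rose by 0.63 (SE 0.15, limma adjusted p = 0.00261) in KO and 0.39 (SE 0.15, limma adjusted p = 0.0441) in WT. The KO value was 0.38 without the same 2 libraries (limma adjusted p = 0.0798), and the WT call ended under each removal of 1 WT library except control library 4 and cryoinjury library 3 (limma adjusted p = 0.0531 to 0.15). The nfkbib gene rose in KO hearts, by 0.53 (SE 0.16, limma adjusted p = 0.00948), a call that also ended without those libraries (0.38, limma adjusted p = 0.134), and differed by 0.20 (SE 0.16, limma adjusted p = 0.309) in WT. Neither relb, which encodes the partner of p52, nor the inhibitor gene nfkbiab passed in either genotype, with differences of 0.01 and 0.23 in KO and -0.06 and -0.07 in WT.

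**Figure D2:**
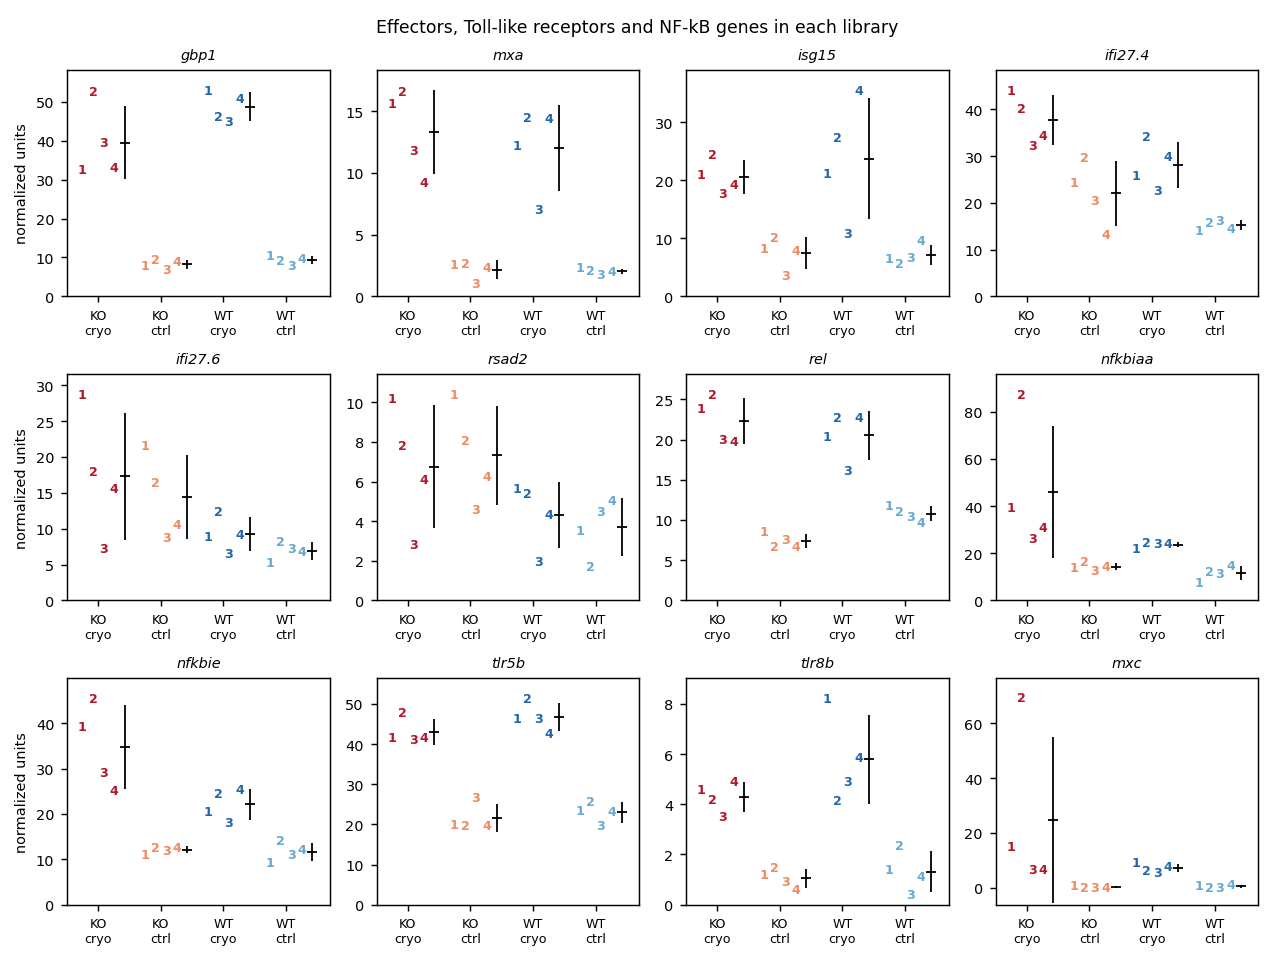
Normalized units (y axis, a scale of its own in each panel) of 12 effector, receptor and NF-kB genes in the 4 groups. Digits are library numbers and the black bar is the mean with the SD of 4 libraries. For gbp1, mxa, rel, nfkbie, tlr5b and tlr8b the injured libraries lie above the control libraries of the same genotype, while in mxc KO cryoinjury library 2 stands at 69.5 above the other 3 libraries of its group at 6.79 to 15.2.

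Among the 10 Irf genes, which encode transcription factors of the interferon system, 5 rose and 1 fell in KO hearts, and 6 rose in WT hearts. Over all genes, 25.2% rose and 22.4% fell in KO hearts, and 24.2% rose and 21.7% fell in WT hearts. Without irf10, which entered the table through injured hearts, 4 of 9 rose and 1 fell in KO hearts, and 5 rose in WT hearts. The irf8 gene, required for macrophage development in zebrafish, read 31.3, 27.6, 25.9 and 21.3 in KO cryoinjury and 7.66, 12.9, 7.47 and 8.04 in KO control. WT hearts held 39.5, 36.1, 29.1 and 30.3 in cryoinjury and 6.72, 11.9, 7.59 and 9.41 in control. The lowest injured library had 21.3 units and the highest control library 12.9. The rise was 1.48 (SE 0.18, limma adjusted p = 3.98e-06) in KO and 1.83 (SE 0.18, limma adjusted p = 3.49e-07) in WT. The irf9 gene, for a partner of Stat2, read 27.1, 29.9, 31 and 26.3 in KO cryoinjury and 16.5, 15.6, 14.6 and 12.9 in KO control. In WT hearts it read 29.7, 30.2, 27.4 and 26.5 in cryoinjury and 15.9, 16.6, 16.3 and 17.7 in control. It rose by 0.90 (SE 0.09, limma adjusted p = 5.37e-07) in KO and 0.74 (SE 0.09, limma adjusted p = 3.9e-06) in WT with no overlap. The irf5 gene, which acts downstream of Toll-like receptors, read 6.71, 8.24, 6.51 and 5.9 in KO cryoinjury and 4.05, 3.37, 2.59 and 1.57 in KO control. WT libraries read 6.33, 5.0, 3.63 and 5.58 in cryoinjury and 1.77, 3.56, 2.32 and 3.79 in control. It rose by 1.05 (SE 0.22, limma adjusted p = 0.000871) in KO, where the groups did not overlap, and by 0.69 (SE 0.22, limma adjusted p = 0.0169) in WT, where they did. The WT call ended without WT cryoinjury library 1 (0.59, limma adjusted p = 0.0568) or WT control library 1 (0.54, limma adjusted p = 0.0632).

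The irf7 gene, which amplifies type I interferon production, read 19.5, 20.4, 15.4 and 17.3 in KO cryoinjury and 17.3, 18.4, 19.4 and 18.8 in KO control. The values in WT hearts were 17.9, 20.2, 19.4 and 23.4 in cryoinjury and 16.8, 13.3, 12 and 14.9 in control. In KO hearts the groups overlapped and the difference was -0.03 (SE 0.12, limma adjusted p = 0.839). In WT hearts every injured library was above every control library, by 0.48 (SE 0.12, limma adjusted p = 0.00234). The interaction, KO response minus WT response, was -0.52 (SE 0.16, limma adjusted p = 0.426), which did not pass. The irf1b gene read 11, 11, 10.3 and 13.3 in KO cryoinjury and 7.81, 11.3, 9.91 and 11.2 in KO control. WT values were 7.04, 8.87, 8.05 and 10.5 in cryoinjury and 7.78, 8.7, 10.6 and 11.7 in control, with overlap in both genotypes and differences of 0.17 (SE 0.15, limma adjusted p = 0.357) in KO and -0.15 (SE 0.15, limma adjusted p = 0.438) in WT. Of the other Irf genes, irf10 rose by 1.14 in KO and 1.00 in WT, and irf3, the factor activated through Sting and Mavs, rose by 0.53 and 0.49, although irf3 lost its call in each genotype when single libraries were left out. In KO hearts irf3 was at 0.40 with cryoinjury libraries 1 and 2 left out (limma adjusted p = 0.148). The irf4 gene, which entered the table through control hearts, was lower in injured KO hearts, at -0.59 (SE 0.21, limma adjusted p = 0.03), on 3 to 10 reads per injured library. That call ended without KO cryoinjury library 1 (-0.44, limma adjusted p = 0.103) and without KO control library 1, 2 or 4 (limma adjusted p = 0.0537, 0.0866 and 0.0743). It was -0.47 with both KO cryoinjury libraries 1 and 2 left out (limma adjusted p = 0.142) and -0.45 with library totals (limma adjusted p = 0.0924). The irf2a and irf2b genes did not pass, with differences of 0.41 and 0.16 in KO and 0.24 and 0.33 in WT.

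Jak kinase genes differed in whether they passed. The jak1 gene, whose kinase serves interferon and interleukin-6 family receptors, read 226, 217, 204 and 201 in KO cryoinjury and 152, 122, 142 and 125 in KO control. WT hearts showed 242, 208, 215 and 216 in cryoinjury and 149, 154, 148 and 147 in control. It rose by 0.65 (SE 0.08, limma adjusted p = 3.13e-06) in KO and 0.56 (SE 0.08, limma adjusted p = 1.51e-05) in WT, with every injured library above every control library. The jak3 gene, which works with the common gamma chain of lymphoid cytokine receptors, read 14.2, 16.5, 13.2 and 10.7 in KO cryoinjury and 7.36, 7.0, 6.86 and 5.1 in KO control. Wild-type libraries had 16.2, 14.4, 14.4 and 13.5 in cryoinjury and 5.31, 10.9, 6.05 and 10.1 in control. It rose by 0.94 (SE 0.19, limma adjusted p = 0.000495) in KO and 0.83 (SE 0.19, limma adjusted p = 0.00138) in WT. The jak2 gene, of growth hormone and erythropoietin signalling, read 36, 34.3, 36.6 and 33.2 in KO cryoinjury and 47, 39.3, 36.9 and 31.2 in KO control. Libraries of WT hearts read 33.4, 34.6, 29.8 and 30.6 in cryoinjury and 30.8, 35.8, 37.3 and 36.7 in control. Its groups overlapped and its difference was -0.12 (SE 0.11, limma adjusted p = 0.355) in KO and -0.13 (SE 0.11, limma adjusted p = 0.348) in WT. The tyk2 gene, for the kinase of type I interferon and interleukin-12 receptors, read 21.5, 25.4, 21.9 and 19.4 in KO cryoinjury and 26.3, 22.1, 15.2 and 16.3 in KO control. WT hearts had 23.1, 22.1, 21 and 20.1 in cryoinjury and 14.3, 18.3, 15.6 and 17.6 in control. The difference was 0.16 (SE 0.14, limma adjusted p = 0.366) in KO. It rose by 0.38 (SE 0.14, limma adjusted p = 0.0383) in WT, a call lost when single libraries were left out.

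Of the 8 Stat genes, 2 rose (25%) and 1 fell (12.5%) in KO hearts, and 3 rose (37.5%) and 1 fell (12.5%) in WT hearts. Over all genes, 25.2% rose and 22.4% fell in KO hearts, and 24.2% rose and 21.7% fell in WT hearts, so the KO share that rose was near that of all genes. The stat3 gene, for the factor of interleukin-6 family signalling, read 48, 54.1, 58.7 and 48.1 in KO cryoinjury and 30.5, 27.9, 27.9 and 29.4 in KO control. WT hearts held 64.3, 51.8, 57.9 and 67.7 in cryoinjury and 34.1, 35.1, 29.7 and 35.3 in control. All injured libraries exceeded all control libraries, and the rise was 0.83 (SE 0.09, limma adjusted p = 2.09e-06) in KO and 0.83 (SE 0.09, limma adjusted p = 1.82e-06) in WT. The opposite held for stat4, whose product acts downstream of interleukin-12 in lymphocytes: it read 51.8, 71, 63.3 and 66.9 in KO cryoinjury and 105, 118, 109 and 99.2 in KO control. In WT hearts it read 74.2, 54.4, 66.1 and 55 in cryoinjury and 106, 90.9, 106 and 99.5 in control. It fell, with differences of -0.77 (SE 0.11, limma adjusted p = 2.27e-05) in KO and -0.69 (SE 0.11, limma adjusted p = 6.11e-05) in WT and no overlap. Of 8 lymphocyte marker names, 2 had values, cd4-1 and il2rga. Their sums were 7.24 to 8.08 units in KO cryoinjury and 1.5 to 3.37 in KO control. In WT hearts the sums were 5.57 to 12.3 in cryoinjury and 2.48 to 3.93 in control. Control libraries of cd4-1 read at most 0.983 units, under the filter level of the table, so it entered the table through injured hearts. These 2 genes therefore do not show whether lymphocyte numbers changed, and their part in the stat4 difference was not tested.

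The stat2 gene, for a factor of type I interferon signalling, read 135, 138, 141 and 111 in KO cryoinjury and 132, 192, 134 and 94.3 in KO control. WT libraries read 107, 125, 98.6 and 106 in cryoinjury and 90.7, 97, 91.3 and 80.1 in control. Its difference was -0.04 (SE 0.15, limma adjusted p = 0.866) in KO and 0.28 (SE 0.15, limma adjusted p = 0.147) in WT. The stat5a gene differed by 0.10 in KO and rose in WT hearts by 0.66 (SE 0.18, limma adjusted p = 0.00693). Neither stat5b nor stat6, the factor of interleukin-4 signalling, passed in either genotype (-0.09 and 0.36 in KO, 0.10 and 0.20 in WT).

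**Figure D3:**
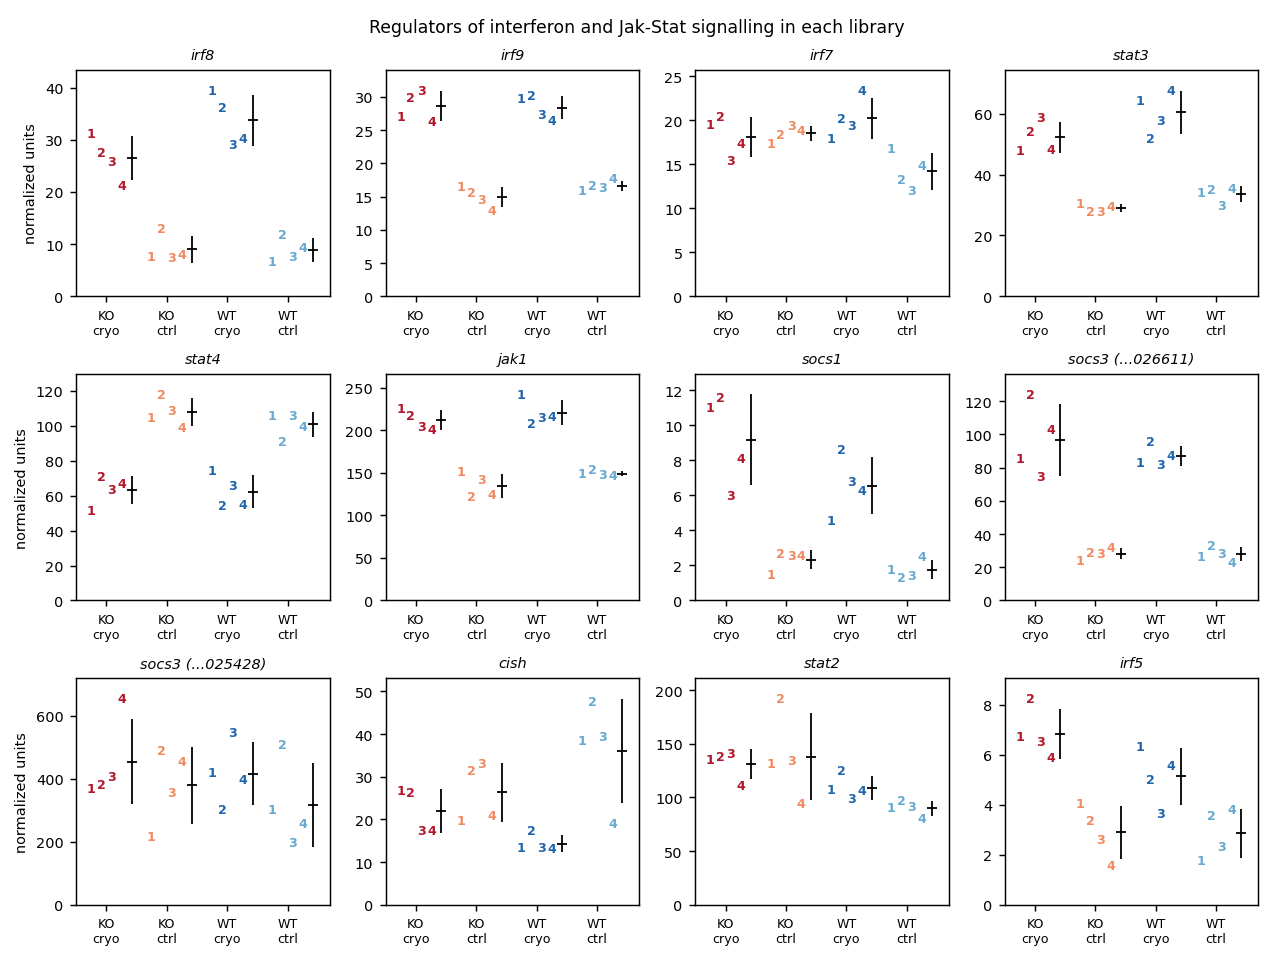
Normalized units (y axis, a scale of its own in each panel) of 12 regulators in the 4 groups. Digits are library numbers and the black bar is the mean with the SD of 4 libraries, and genes that share a symbol carry the end of their Ensembl identifier. The irf8, irf9, stat3, jak1 and socs1 libraries are higher after injury in both genotypes and the stat4 libraries lower, whereas irf7 and cish libraries separate by injury in WT hearts and overlap in KO hearts.

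The 10 inhibitor genes of the Socs and Cish family divided into those that rose and those that fell or did not pass. In KO hearts 2 rose (20%) and 0 fell, and in WT hearts 2 rose (20%) and 3 fell (30%). Over all genes, 25.2% rose and 22.4% fell in KO hearts, and 24.2% rose and 21.7% fell in WT hearts. The socs1 gene, for an inhibitor of Jak kinases in interferon signalling, read 11, 11.6, 6.01 and 8.13 in KO cryoinjury and 1.5, 2.69, 2.59 and 2.55 in KO control. The values in WT hearts were 4.57, 8.59, 6.78 and 6.3 in cryoinjury and 1.77, 1.32, 1.42 and 2.53 in control. It rose by 1.59 (SE 0.21, limma adjusted p = 1.18e-05) in KO and 1.45 (SE 0.21, limma adjusted p = 2.82e-05) in WT, with no overlap. One socs3 gene, ENSDARG00000026611, for the inhibitor of the interleukin-6 family route, read 85.2, 124, 74.8 and 103 in KO cryoinjury and 24, 28.7, 28.4 and 31.6 in KO control. WT values were 83.1, 95.7, 81.9 and 87.1 in cryoinjury and 26.7, 33.3, 28.2 and 22.9 in control. It rose by 1.72 (SE 0.14, limma adjusted p = 3.67e-08) in KO and 1.62 (SE 0.14, limma adjusted p = 7.15e-08) in WT, again with no overlap. The other socs3 gene, ENSDARG00000025428, read 369, 382, 407 and 654 in KO cryoinjury and 215, 488, 356 and 455 in KO control. WT hearts showed 419, 301, 546 and 396 in cryoinjury and 303, 508, 198 and 259 in control. The groups overlapped, and its difference was 0.28 (SE 0.28, limma adjusted p = 0.43) in KO and 0.45 (SE 0.28, limma adjusted p = 0.211) in WT.

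The cish, cishb and socs2 genes, whose mammalian counterparts are targets of Stat5, fell in WT hearts. The cish gene read 26.7, 26.2, 17.4 and 17.5 in KO cryoinjury and 19.7, 31.4, 33.2 and 21 in KO control. Wild-type libraries had 13.5, 17.4, 13.4 and 13.1 in cryoinjury and 38.4, 47.7, 39.5 and 19 in control. KO libraries overlapped, with a difference of -0.24 (SE 0.24, limma adjusted p = 0.42). In WT hearts all injured libraries lay below all control libraries, and the difference was -1.21 (SE 0.24, limma adjusted p = 0.000469). The test of the difference between the responses gave 0.97 (SE 0.34, limma adjusted p = 0.496). The cishb gene differed by -0.28 (SE 0.31, limma adjusted p = 0.484) in KO and -0.99 (SE 0.31, limma adjusted p = 0.0141) in WT, with an interaction of 0.71 (limma adjusted p = 0.696). The socs2 gene differed by 0.01 (SE 0.29, limma adjusted p = 0.988) in KO and -0.81 (SE 0.29, limma adjusted p = 0.0286) in WT, with an interaction of 0.81 (limma adjusted p = 0.63). The WT calls of cishb and socs2 ended with scaling by library totals, and socs2, which entered the table through control hearts, rests on 6 to 23 reads per injured WT library. One of the 2 socs6 genes, ENSDARG00000058565, read 1.68, 2.02, 2.5 and 1.67 in KO cryoinjury and 2.7, 3.23, 1.98 and 2.16 in KO control. Libraries of WT hearts read 2.81, 2.27, 1.87 and 2.22 in cryoinjury and 1.24, 2.11, 3.09 and 1.4 in control. It did not pass (-0.24 in KO and 0.19 in WT). Its namesake ENSDARG00000015863 (-0.13 and 0.00), socs5b (-0.07 and 0.08) and socs7 (-0.37 and 0.60) did not pass either.

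The 30 interferon effectors held 20 genes that rose and 1 that fell in KO hearts, and 21 that rose and 1 that fell in WT hearts. Of the 30, 7 entered the table through injured hearts (ifi44a1, ifi44a6, ifi44c2, ifit11, ifit12, mxc and mxf). Of the other 23, 14 rose and 1 fell in KO hearts, and 14 rose and 1 fell in WT hearts. Over all genes, 25.2% rose and 22.4% fell in KO hearts, and 24.2% rose and 21.7% fell in WT hearts. The gbp1 gene, for an interferon-induced GTPase of antimicrobial defence, read 32.5, 52.6, 39.6 and 33.2 in KO cryoinjury and 7.81, 9.42, 6.86 and 9.02 in KO control. WT hearts had 53, 46.2, 45 and 51 in cryoinjury and 10.4, 9.22, 7.85 and 9.83 in control. Every injured library exceeded every control library, and the rise was 2.11 (SE 0.14, limma adjusted p = 4.76e-09) in KO and 2.27 (SE 0.14, limma adjusted p = 2.84e-09) in WT. The related gbp2 gene read 14.9, 18.6, 15.9 and 16.3 in KO cryoinjury and 6.3, 8.21, 6.71 and 4.31 in KO control. WT hearts held 20.1, 16.6, 17.4 and 23 in cryoinjury and 4.77, 7.64, 4.63 and 6.04 in control. It rose by 1.26 (SE 0.17, limma adjusted p = 1.03e-05) in KO and 1.59 (SE 0.17, limma adjusted p = 7.35e-07) in WT. The gbp3 gene did not pass, with 0.10 in KO and 0.23 in WT.

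The ifi30a gene encodes a lysosomal thiol reductase used in antigen processing, and read 50.6, 59.7, 57.2 and 52 in KO cryoinjury and 23.3, 26.4, 24.5 and 21.4 in KO control. In WT hearts it read 62.2, 57.6, 63.7 and 66.1 in cryoinjury and 19.5, 26.8, 21.5 and 23.2 in control. It rose by 1.17 (SE 0.10, limma adjusted p = 6.37e-08) in KO and 1.43 (SE 0.10, limma adjusted p = 8.05e-09) in WT without overlap. The Mx genes encode dynamin-like GTPases with antiviral activity, and mxa read 15.6, 16.6, 11.8 and 9.24 in KO cryoinjury and 2.55, 2.69, 1.07 and 2.35 in KO control. WT libraries read 12.2, 14.5, 7.07 and 14.4 in cryoinjury and 2.3, 2.11, 1.8 and 1.97 in control. It rose by 2.18 (SE 0.23, limma adjusted p = 7.59e-07) in KO and 2.06 (SE 0.23, limma adjusted p = 1.26e-06) in WT. The mxc gene read 15.2, 69.5, 6.84 and 6.79 in KO cryoinjury and 0.901, 0, 0 and 0.196 in KO control. The values in WT hearts were 9.26, 6.42, 5.7 and 7.67 in cryoinjury and 0.707, 0.132, 0.257 and 1.12 in control. Its rise was 3.73 (SE 0.50, limma adjusted p = 1.05e-05) in KO and 2.44 (SE 0.50, limma adjusted p = 0.000634) in WT. In KO hearts it was 3.02 with cryoinjury library 2 left out (limma adjusted p = 1.08e-06) and 2.67 with both libraries 1 and 2 left out (limma adjusted p = 8.84e-06). In WT hearts the call was lost with limma voom (adjusted p = 0.0586) and with a pseudocount of 10 (limma adjusted p = 0.0825). The mxe and mxf genes rose by 0.92 and 1.71 in KO and by 1.02 and 1.31 in WT.

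The isg15 gene encodes a ubiquitin-like protein that is attached to other proteins, and read 20.9, 24.4, 17.7 and 19.2 in KO cryoinjury and 8.26, 10.2, 3.66 and 7.84 in KO control. WT values were 21.2, 27.3, 10.9 and 35.5 in cryoinjury and 6.54, 5.67, 6.69 and 9.69 in control. It rose by 1.40 (SE 0.29, limma adjusted p = 0.000771) in KO and 1.51 (SE 0.29, limma adjusted p = 0.000386) in WT, and its WT injured libraries spread more widely than its KO ones. The exonuclease gene isg20 rose by 1.00 in KO and 0.67 in WT, and ifi35 by 0.75 and 1.11. The RNA-binding Ifit genes ifit11, ifit12 and ifit16 rose in both genotypes, by 0.94, 1.28 and 1.35 in KO and 1.04, 1.12 and 1.46 in WT. The KO value of ifit11 was 0.66 with cryoinjury libraries 1 and 2 left out (limma adjusted p = 0.0542). The membrane protein gene ifitm1 rose by 0.75 in KO and 1.18 in WT. Its KO call ended without KO cryoinjury library 1, 2 or 4 (0.72, 0.70 and 0.64, limma adjusted p = 0.0541, 0.0613 and 0.0731) or KO control library 1 or 2 (0.65 and 0.66, limma adjusted p = 0.0756 and 0.0683). With cryoinjury libraries 1 and 2 both left out it was 0.61 (limma adjusted p = 0.163). The cytoplasmic RNA sensor genes ifih1 (Mda5) and dhx58 (Lgp2) rose by 0.55 and 0.76 in KO and by 0.38 and 0.80 in WT, and both lost their call in both genotypes under at least 1 alternative. In KO hearts ifih1 was at 0.41 and dhx58 at 0.26 with cryoinjury libraries 1 and 2 left out (limma adjusted p = 0.0615 and 0.49), and dhx58 was at 0.43 without library 2 alone (limma adjusted p = 0.188). In WT hearts 6 of the 8 removals of 1 WT library ended the call of ifih1 (limma adjusted p = 0.0691 to 0.117), and 7 that of dhx58 (limma adjusted p = 0.0505 to 0.108).

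Not every effector rose. The rsad2 gene, for the antiviral enzyme viperin, read 10.2, 7.81, 2.84 and 6.12 in KO cryoinjury and 10.4, 8.08, 4.57 and 6.27 in KO control. WT hearts showed 5.63, 5.38, 1.96 and 4.32 in cryoinjury and 3.54, 1.71, 4.5 and 5.06 in control. Its groups overlapped and its difference was -0.16 (SE 0.34, limma adjusted p = 0.726) in KO and 0.17 (SE 0.34, limma adjusted p = 0.701) in WT. Of the 5 ifi44 genes, ifi44a1 rose by 1.44 in KO and 1.99 in WT, ifi44c2 rose by 1.17 and 0.78, and ifi44f3 did not pass (0.25 and 0.41). In KO hearts ifi44c2 was at 0.71 with cryoinjury libraries 1 and 2 left out (limma adjusted p = 0.108). Its WT call ended with limma voom (1.48, adjusted p = 0.0529), with a pseudocount of 10 (0.16, limma adjusted p = 0.0914) and under 6 of the 8 removals of 1 WT library (limma adjusted p = 0.0628 to 0.13). The ifi44a6 gene differed by 0.91 (SE 0.37, limma adjusted p = 0.0538) in KO and rose in WT by 1.57 (SE 0.37, limma adjusted p = 0.00226). The ifi44f1 gene was lower after injury in KO hearts, at -0.59 (SE 0.24, limma adjusted p = 0.0478), a call that voom, edgeR and DESeq2 did not make, and differed by -0.27 in WT. The KO value was -0.35 with library totals (limma adjusted p = 0.242) and -0.33 without KO cryoinjury library 3 (limma adjusted p = 0.192). Of the 7 ifi27 genes, ifi27.1 and ifi27.4 rose in both genotypes, by 0.93 and 0.80 in KO and 0.82 and 0.83 in WT, and ifi27.8 was lower after injury in WT, at -0.28 (SE 0.09, limma adjusted p = 0.0162). For ifi27.1 the KO value was 0.77 with cryoinjury libraries 1 and 2 left out (limma adjusted p = 0.0789). Its WT call ended without WT cryoinjury library 2 or 4 (0.72 and 0.67, limma adjusted p = 0.05 and 0.0595) or WT control library 4 (0.71, limma adjusted p = 0.0511). With library totals in place of the authors' scaling the WT value of ifi27.8 was 0.07. The ifi27.2, ifi27.5, ifi27.6 and ifi27.7 genes did not pass, with differences of 0.03 to 0.42 in KO and 0.03 to 0.38 in WT.

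No member passed in a comparison of genotypes with limma. After cryoinjury, KO minus WT, limma called 0 of 76 members, against 0.441% of all genes, and 15 had an unadjusted p under 0.05 (13 higher and 2 lower in KO). These are 19.7% of the members, against 12.2% of all genes (6.53% higher and 5.66% lower). In control hearts limma called 0 of 76, against 1.48% of all genes, and 18 had an unadjusted p under 0.05 (12 higher and 6 lower in KO), or 23.7% of the members, against 15.9% of all genes (6.95% higher and 8.9% lower). The edgeR quasi-likelihood test and limma voom also called 0 in both comparisons, while DESeq2 called 2 in each. The libraries of the genotypes did not overlap after cryoinjury for 4 members (ifi27.2, ifi27.8 and nfkbiaa higher and irf4 lower in KO). Of all genes, 7.86% did not overlap there (3.84% higher and 4.01% lower). In control hearts 5 members were apart in the same way (ifi27.6, ifi44f1 and irf7 higher and rel and cishb lower in KO), against 7.73% of all genes (3.74% higher and 3.99% lower). The median KO minus WT difference of the 76 genes was 0.06 after cryoinjury and 0.11 in control hearts, against 0.00 and -0.01 for all genes. The median after cryoinjury was -0.06 with KO cryoinjury libraries 1 and 2 left out.

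**Figure D4:**
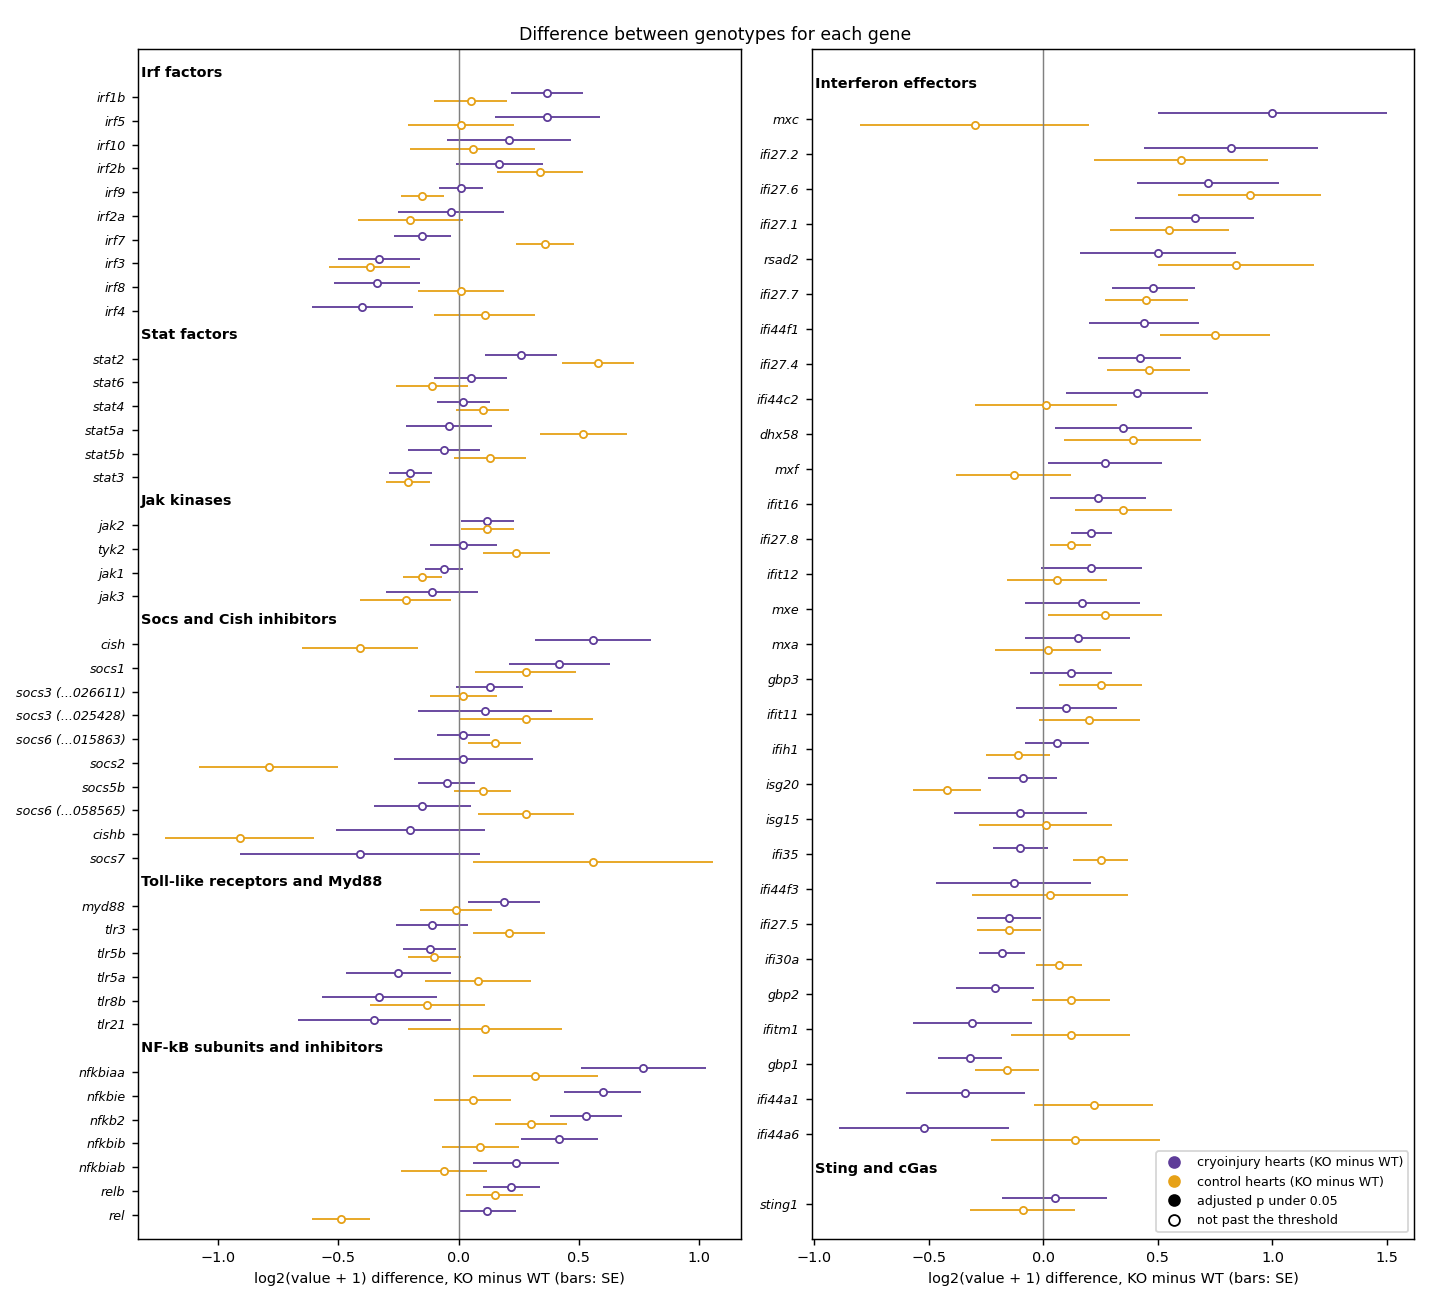
Difference between KO and WT hearts for the members described here, on the log2(value + 1) scale (x axis), after cryoinjury (purple) and in control hearts (yellow), grouped by role and ordered within a role by the difference after cryoinjury. Bars are standard errors, and all points are open because none passed an adjusted p of 0.05. After cryoinjury the 7 NF-kB points all lie to the right of 0, between 0.12 and 0.77.

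The NF-kB genes after cryoinjury had KO minus WT differences above 0 for 7 of 7, also with DESeq2 size factors and library totals, and 4 of them (57.1%, against 12.2% of all genes) had an unadjusted p under 0.05. Among the 76 members, 46 had a difference above 0, and 30 did with KO cryoinjury libraries 1 and 2 left out. For nfkbie the KO libraries read 39.3, 45.4, 29.2 and 25.1 and the WT libraries 20.6, 24.5, 18.1 and 25.3, with overlap between KO library 4 and WT library 4. Its difference was 0.60 (SE 0.16, limma adjusted p = 0.132), DESeq2 called it (0.64, adjusted p = 0.0328), and over the alternatives its adjusted p ranged from 0.0328 to 0.555. For nfkb2 the KO libraries read 48.3, 52.5, 32.9 and 38 and the WT libraries 28.7, 28, 24.6 and 34.8, a difference of 0.53 (SE 0.15, limma adjusted p = 0.149) that DESeq2 also called (0.56, adjusted p = 0.0429; range over the alternatives 0.0429 to 0.569). The values of nfkbiaa differed by 0.77 (SE 0.26, limma adjusted p = 0.226) and those of nfkbib by 0.42 (SE 0.16, limma adjusted p = 0.272). Leaving out libraries 1 and 2 of KO cryoinjury, which hold the high krt5 and mmp9 values given above, the differences of nfkbie, nfkb2, nfkbiaa and nfkbib were 0.29, 0.29, 0.26 and 0.26, and 6 of 7 were above 0. The interaction was above 0 for 7 of 7 with all libraries, for 6 with library totals and for 4 without those 2 libraries, and was largest for rel (0.61, SE 0.18, limma adjusted p = 0.386). Among the 76 members it was above 0 for 37. The 7 genes were read in the same libraries, and KO cryoinjury library 2 was the highest of its group for 5 of them (71.4%, against 26.4% of all genes). Their signs are therefore not separate observations.

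In control hearts 5 of the 8 Stat genes (62.5%, against 15.9% of all genes) had an unadjusted p under 0.05, and none passed after adjustment. Of these 5, 4 were higher and 1 lower in KO. The 8 genes were read in the same libraries. KO control library 2 was the highest of its group for 5 of the 8 (62.5%, all genes: 27%). KO control library 4 was the lowest for 6 (75%, all genes: 26.3%). Their p-values are therefore not separate observations. The stat2 values were 132, 192, 134 and 94.3 in KO control and 90.7, 97, 91.3 and 80.1 in WT control, so that KO library 4 lay inside the WT range and the other 3 KO libraries above it. The difference was 0.58 (SE 0.15, limma adjusted p = 0.0686), DESeq2 called it (0.62, adjusted p = 0.0094), and it passed without KO control library 4 (0.74, limma adjusted p = 0.00634), with adjusted p from 0.00634 to 0.183 over the alternatives. The stat5a gene differed by 0.52 (SE 0.18, limma adjusted p = 0.168) and stat3 by -0.21 (SE 0.09, limma adjusted p = 0.3). The irf7 gene had all KO control libraries above all WT control libraries (0.36, SE 0.12, limma adjusted p = 0.125), as did ifi44f1 (0.75, SE 0.24, limma adjusted p = 0.119), which read 127, 115, 102 and 81.6 in KO control and 59.8, 61, 66.5 and 61 in WT control and was called by DESeq2 (0.78, adjusted p = 0.0438). The rel gene had all KO control libraries below all WT control libraries (-0.49, SE 0.12, limma adjusted p = 0.0604), and cishb likewise (-0.91, SE 0.31, limma adjusted p = 0.145). For rsad2 the KO control minus WT control difference was 0.84 (SE 0.34, limma adjusted p = 0.228).

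The ifi27 genes encode small interferon-induced membrane proteins, and this subgroup was picked out after its values were seen. They were higher in KO than in WT for 6 of 7 genes after cryoinjury and for 6 of 7 in control hearts, under each scaling, and none passed. Among the 76 members, 46 were higher in KO after cryoinjury and 54 in control hearts. With KO cryoinjury libraries 1 and 2 left out, 30 of the 76 members and 6 of the 7 ifi27 genes were higher after cryoinjury. After cryoinjury ifi27.1 read 30.3, 30.4, 22.4 and 26.6 in KO cryoinjury and 14, 20.7, 12 and 23.1 in WT cryoinjury, a difference of 0.66 (SE 0.26, limma adjusted p = 0.303), and in control hearts 15.5, 18.4, 15.9 and 8.04 in KO control and 7.43, 8.04, 16 and 7.16 in WT control, a difference of 0.55 (SE 0.26, limma adjusted p = 0.311). The ifi27.4 gene read 44.1, 40.2, 32.2 and 34.5 in KO cryoinjury and 25.8, 34.1, 22.6 and 29.9 in WT cryoinjury with a difference of 0.42 (SE 0.18, limma adjusted p = 0.353), and 24.3, 29.8, 20.6 and 13.3 in KO control and 14, 15.8, 16.3 and 14.6 in WT control with 0.46 (SE 0.18, limma adjusted p = 0.226). Without KO control library 4, its lowest, the control difference of ifi27.4 was 0.66 (limma adjusted p = 0.0286). The ifi27.6 gene read 28.7, 17.9, 7.18 and 15.6 in KO cryoinjury and 8.91, 12.4, 6.58 and 9.17 in WT cryoinjury, and 21.6, 16.4, 8.84 and 10.6 in KO control and 5.31, 8.17, 7.21 and 6.88 in WT control, where the genotypes did not overlap (0.90, SE 0.31, limma adjusted p = 0.163). The exception was ifi27.5, with -0.15 after cryoinjury and -0.15 in control hearts. Without KO cryoinjury libraries 1 and 2 the median of the 7 differences after cryoinjury was 0.24, against 0.48 with all libraries. Reads of such close gene copies may have been split between them by the authors' counting.

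Whether the response to injury differed between genotypes was tested directly, and no gene of the table passed (0% of all genes, limma). Of the 76 genes, 6 had an unadjusted p under 0.05 (3 above and 3 below 0), or 7.89% against 8.21% of all genes (4.99% above and 3.22% below 0). Limma voom, edgeR and DESeq2 called 0 of the members. Over all genes limma voom and edgeR also called 0, while DESeq2 called 17 above and 3 below 0, and limma with a replicate block called 1 above 0. A gene that passed in one genotype and not in the other, as 2 of the genes that rose in KO hearts and 5 of those that rose in WT hearts did, is therefore not shown to respond differently. The smallest unadjusted p among the members belonged to rel (0.0029, limma adjusted p = 0.386), followed by irf7 (0.00573, limma adjusted p = 0.426) and cish (0.0108, limma adjusted p = 0.496).

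Other genes of the same pathways were taken from lists of ligands and receptors, adaptors, further interferon-induced genes and negative regulators. Over all genes of the table, 25.2% rose and 22.4% fell in KO hearts, and 24.2% rose and 21.7% fell in WT hearts. Of 7 receptor genes with values (26 names listed, the interferon ligands among those not analysed here), 1 rose in KO and 2 in WT hearts. The lifrb gene, for a receptor of the interleukin-6 family, read 29.9, 47.8, 20 and 16.6 in KO cryoinjury and 3.45, 3.77, 3.81 and 2.74 in KO control. Wild-type libraries had 28.1, 21.6, 20 and 26.8 in cryoinjury and 3.54, 6.72, 4.5 and 4.07 in control. It rose by 2.63 (SE 0.25, limma adjusted p = 2.15e-07) in KO and 2.16 (SE 0.25, limma adjusted p = 1.68e-06) in WT, and crfb4 rose in WT (0.35). Of 18 adaptor and kinase genes, 8 rose and 3 fell in KO hearts, and 6 rose and 4 fell in WT hearts. The inflammasome genes pycard and caspa rose by 2.07 and 1.73 in KO and 2.23 and 2.16 in WT. The gene of the Toll-like receptor chaperone, unc93b1, rose by 0.88 in KO and 1.1 in WT. The mavs gene, for the mitochondrial adaptor of RNA sensors, had the reverse direction and read 51.7, 54.9, 58.1 and 48.8 in KO cryoinjury and 88, 84.6, 105 and 97.8 in KO control. Libraries of WT hearts read 47.8, 45.9, 41.3 and 39.5 in cryoinjury and 81.9, 93.7, 88.6 and 72.3 in control. Its difference was -0.80 (SE 0.10, limma adjusted p = 3.73e-06) in KO and -0.93 (SE 0.10, limma adjusted p = 6.57e-07) in WT.

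Of 15 further interferon-induced genes, 2 rose (13.3%) and 2 fell (13.3%) in KO hearts and 5 rose (33.3%) in WT hearts, against 25.2% of all genes that rose and 22.4% that fell in KO hearts and 24.2% and 21.7% in WT hearts, with xaf1 rising in both (1.09 in KO and 1.49 in WT). Of 8 negative regulators, 3 rose and 1 fell in KO hearts and 2 rose in WT hearts. The bcl3 gene, for a nuclear IkB protein, rose by 2.23 in KO and 1.41 in WT, and the phosphatase gene ptpn6 by 1.68 and 1.58. Control libraries of bcl3 read at most 1.54 units, under the filter level of 1.76, so it entered the table through injured hearts. The tnfaip3 gene, for the NF-kB inhibitor A20, rose in KO hearts by 1.18 (SE 0.20, limma adjusted p = 0.000147) and differed by 0.10 (SE 0.20, limma adjusted p = 0.725) in WT, and the interaction was 1.08 (SE 0.29, limma adjusted p = 0.384). Between genotypes, 1 of the 15 interferon-induced genes passed after cryoinjury and 1 in control hearts, and 1 of the 8 negative regulators passed after cryoinjury. None of the 7 receptor genes or the 18 adaptor and kinase genes did. Of all genes of the table, 0.441% passed after cryoinjury and 1.48% in control hearts. The peptide transporter gene tap2a was higher in KO hearts after cryoinjury, at 10.4, 13.7, 5.51 and 4.45 in KO cryoinjury and 3.64, 0, 1.37 and 0 in WT cryoinjury, by 2.27 (SE 0.41, limma adjusted p = 0.0238). It was 1.71 with KO cryoinjury libraries 1 and 2 left out (limma adjusted p = 0.195). All KO libraries of tap2a were above the filter level of 1.76 units. Of its WT libraries only cryoinjury library 1 was, so it entered the table through KO hearts, where it is high. The nlrc5 gene, for a regulator of class I major histocompatibility genes in mammals, was higher in KO control than in WT control hearts by 0.51 (SE 0.12, limma adjusted p = 0.0393), and the phosphatase gene ptpn11b was lower in KO than in WT hearts after cryoinjury, by -0.40 (SE 0.08, limma adjusted p = 0.042). Over the alternatives the limma or count-test adjusted p reached 0.211 for tap2a, 0.137 for nlrc5 and 0.175 for ptpn11b. It was under 0.05 in 20 of 28 alternatives for tap2a, 19 of 29 for nlrc5 and 15 of 29 for ptpn11b. Those alternatives include omissions of libraries outside the comparison and the main fit once more. With 1 library of the compared groups left out, nlrc5 passed only without KO control library 4 (limma adjusted p otherwise 0.0619 to 0.134). The ptpn11b gene passed only without KO cryoinjury library 4 (limma adjusted p otherwise 0.0625 to 0.132). The tap2a call ended without KO cryoinjury library 1 or 2 or WT cryoinjury library 2 or 4 (limma adjusted p = 0.0681 to 0.0854).

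The same libraries tended to be high or low for many of the 76 genes. KO cryoinjury library 2 was the highest of its group for 42 genes (55.3%, against 26.4% of all genes), including 19 of 30 effectors and 5 of 7 NF-kB genes. KO control library 2 was the highest of its group for 35 genes (46.1%, all genes: 27%), and KO control library 4 the lowest for 33 (43.4%, all genes: 26.3%), including 6 of 8 Stat genes. WT cryoinjury library 3 was the lowest of its group for 35 genes (46.1%, all genes: 26.4%), and for 19 of 30 effectors, and the highest for none of the 30. In WT control hearts library 2 was the highest for 29 genes (38.2%, all genes: 29.1%) and library 1 the lowest for 27 (35.5%, all genes: 26.3%). KO cryoinjury library 3 was the lowest of its group for 31 genes (40.8%, all genes: 25.6%). Beside the KO cryoinjury sums given above, the neutrophil markers summed to 5.64 to 11.8 units in KO control and 35.5 to 78.3 in WT cryoinjury. In WT control they summed to 124 units in library 4 and 7.07 to 13.7 in the other 3 libraries. The part of cell composition in the order of the libraries was not tested.

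**Figure D5:**
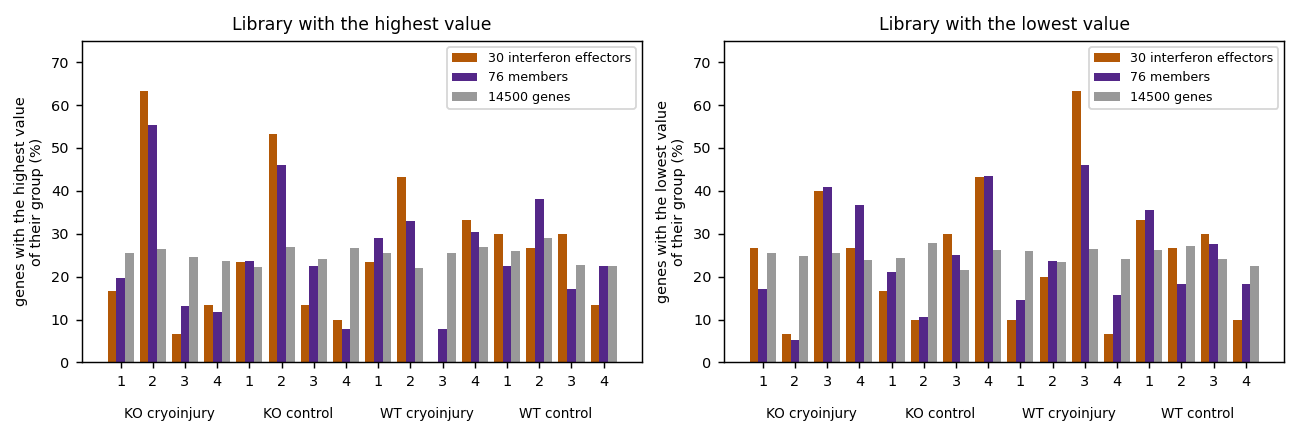
Percent of genes (y axis) for which each library (x axis, numbered within its group) had the highest (left) or the lowest (right) value of its group, for the 30 interferon effectors, the 76 genes and all 14500 genes. KO cryoinjury library 2 reaches 55.3% of the 76 genes for the highest value and WT cryoinjury library 3 46.1% for the lowest, while all genes stay between 21.6% and 29.1% in every library.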

How the data were processed

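RNA sequencing of 16 libraries (4 groups of 4) was analysed from the table the authors deposited. Its values are a normalized signal, and per the submitters' processing notes CASAVA 1.8.2, cutadapt, RSEM 1.2.3 and build Zv9 were used, in roles not given there. In every library 100% of values were whole multiples of 1 step (tolerance 0.01 read), so reads were recovered (5611576 to 14831664 per library), and the factors differed from edgeR's TMM factors by at most 1.6e-08%. Low genes depend most on depth.

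A gene name table gave symbols to 11702 of 14500 identifiers. Names shared by 2 identifiers (such as socs3 and socs6) are told apart by identifier. Some members enter the counts but are not reported here by name. Members, gene lists and marker lists were chosen with earlier results of these data known.

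The signal was tested with limma 3.58.1 (R 4.3.3, intensity trend) on log2(value + 1), with 4 group means over 16 libraries (12 residual and 5.12 prior degrees of freedom) and Benjamini-Hochberg adjustment over 14500 genes at 0.05. Fold changes on this scale understate low genes. Contrasts were injury in KO and WT, genotype after cryoinjury and in control, and the interaction. Per-library values are given for members called between genotypes, the 3 members of each role with the smallest p in each injury contrast, and a set of central regulators and effectors. The genes nfkbib, mxc, ifi27 and others named beyond that were chosen after their values were seen. Alternatives were other size factors, library totals, a filter at a mean of 5 units, pseudocounts of 0.5 and 10, voom, edgeR 4.0.16 and DESeq2 1.42.0 on recovered reads, the compared groups alone, a replicate block, an adjusted p of 0.01, and omission of each library or of KO cryoinjury libraries 1 and 2. The edgeR test called 3570 genes higher and 3193 lower after injury in KO hearts, and 3517 and 3224 in WT hearts. Scripts were tested on simulated data. Libraries of a group differed by more than sampling noise (chi-square per degree of freedom 6.9 to 19.2). No promoter sequences were searched.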

Additional observations from a re-analysis of the deposited data

Results flagged for a closer look

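In 304 sets of 4 libraries (76 genes in 4 groups), 1 library stood far from the other 3 in 16 sets, by the size of its gap to the nearest library relative to the whole range of the group. Chance alone marks about 1 set in 20.

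In KO cryoinjury hearts, library 2 was high for mxc (69.5 units, the others 6.79 to 15.2), ifi44a1 (7.23, the others 2.29 to 2.56) and tlr5b (47.8, the others 41.1 to 41.6). Library 4 of the same group was high for socs3 (ENSDARG00000025428) at 654 units, with the others at 369 to 407, and low for mxf at 2.12, with the others at 4.51 to 4.91.

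In KO control hearts, the library apart was library 1 for socs1 (1.5, the others 2.55 to 2.69) and ifi44a6 (1.5, the others 0.135 to 0.196), and library 2 for irf8 (12.9, the others 7.47 to 8.04). Library 3 was high for tlr5b (26.7, the others 19.6 to 20) and low for isg20 (6.71, the others 9.80 to 10.1), and library 4 was high for socs7 (4.12, the others 1.68 to 1.95).

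In WT cryoinjury hearts, library 1 was low for nfkbiaa (22.0, the others 24.1 to 24.5) and high for mxf (3.87, the others 2.75 to 2.93). Library 2 was high for cish (17.4, the others 13.1 to 13.5) and low for ifitm1 (51.5, the others 96.6 to 104). In WT control hearts, library 3 was high for ifi27.1 (16, the others 7.16 to 8.04).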

How the results depend on the processing

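Leaving out each library in turn gave 38 to 44 higher in KO (41 with all libraries) and 37 to 43 in WT (44), and 1 to 3 lower in KO (4) and 3 to 5 in WT (5). The fewest members lower were found without KO control library 2 in KO and without WT control library 3 in WT. Without KO cryoinjury libraries 1 and 2 together, 29 were higher and 3 lower in KO, and 32 of its 45 calls remained. Of the calls in KO, 38 remained under every removal of 1 library and 30 under every alternative except the stricter threshold, and of the 49 calls in WT 39 and 37. Injury calls were lost on leaving out KO cryoinjury library 1 (irf4, myd88, dhx58, ifitm1), KO control library 1 (irf4, myd88, ifi44f1, ifitm1), KO control library 2 (irf4, myd88, tlr3, ifi44f1, ifitm1), KO control library 4 (irf4, myd88, irf3, dhx58), KO cryoinjury library 2 (myd88, ifi44f1, dhx58, ifitm1), KO cryoinjury library 4 (tlr3, ifitm1), KO cryoinjury library 3 (ifi44f1), KO control library 3 (ifi44f1, dhx58), WT cryoinjury library 2 (ifi27.1, ifih1, tyk2, nfkb2, ifi44c2, irf3, dhx58), WT cryoinjury library 4 (ifi27.1, ifih1, nfkb2, ifi44c2, dhx58), WT control library 4 (ifi27.1, ifih1, ifi44c2, dhx58), WT cryoinjury library 1 (ifih1, tyk2, nfkb2, socs2, irf5, ifi44c2, dhx58), WT control library 1 (ifih1, tyk2, nfkb2, socs2, irf5, ifi44c2, dhx58), WT control library 3 (ifih1, tyk2, nfkb2, socs2, ifi44c2, irf3, dhx58, ifi27.8), WT cryoinjury library 3 (tyk2, socs2, irf3) or WT control library 2 (nfkb2, socs2, irf3, dhx58). The members lower in KO numbered 1 with library totals, 2 with only the compared groups in the fit and 1 at a threshold of 0.01, and those lower in WT numbered 2 with library totals and 2 at 0.01. Library totals moved the median of all genes to 0.2 in KO and 0.3 in WT. Of all genes, 5330 then rose and 1540 fell in KO (3649 and 3253 with the authors' scaling), and 6519 rose and 1227 fell in WT (3506 and 3149). They turned ifi27.8 in WT hearts to 0.07. With genes under a mean of 5 units left out, 57 members were tested and 29 were higher in WT. Between genotypes, DESeq2 called 2 members higher in KO after cryoinjury (nfkb2 and nfkbie) and 2 in control (stat2 and ifi44f1), while over all genes it called 136 higher and 79 lower after cryoinjury (limma 42 and 22) and 133 higher and 273 lower in control (limma 59 and 156). The compared groups alone gave 1 in control (ifi44f1). The filter on low genes gave 1 lower in control (rel), and leaving out single libraries gave 0 to 2 higher there (2, stat2 and ifi27.4, without KO control library 4, and 1 without WT control library 2). Replicate numbers were no basis for pairing, since same-numbered libraries of 2 groups had correlations of deviations from -0.054 to 0.189. The replicate block gave 1 member higher in KO control (stat2, limma adjusted p = 0.021) and 1 lower (rel, 0.0481). All other counts stayed within 1.5 times. Genes with few reads limit the depth of any statement on sting1, irf4, socs2 and the ifi44 genes.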
